A study of Rattus norvegicus with 27 samples.

Results

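MicroRNAs (miRNAs) in small extracellular vesicles (EVs) were compared between rat Schwann cells differentiated with dibutyryl cyclic AMP (dbcAMP) and undifferentiated Schwann cells. The comparison used 6 of the 27 libraries of the study, chosen by assay and stage, with 3 EV miRNA libraries per stage. All came from primary Schwann cells of 1 commercial source, used at passages 3 to 5, and the labels call the 3 libraries of a stage biological replicates without naming animals or cultures. The p-values therefore measure the spread between these libraries. Differentiated cells had been kept for 72 h with 1 mM dbcAMP, a cell-permeable form of cyclic AMP, in a medium with 1% exosome-depleted serum. Undifferentiated cells received no dbcAMP, and the labels do not give the medium from which their EVs were collected. An effect of dbcAMP and an effect of the medium cannot be told apart. The dedifferentiated stage had the same 72 h of dbcAMP followed by 72 h without it in complete medium with 10% exosome-depleted serum. Its 3 EV miRNA libraries entered the fit, where they added to the estimate of spread, and are otherwise given as values beside the comparison where named.

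A miRNA is cut from a hairpin-shaped precursor to a short mature strand, and its seed, bases 2 to 8, guides it to target messages. EVs carry mature miRNAs and other small RNAs out of the cell, so the levels in EVs reflect both what the cell makes and what it packs and releases. Schwann cells wrap the axons of peripheral nerves. Cyclic AMP drives cultured Schwann cells toward a myelinating state, and miRNAs of the let-7 family, miR-21, miR-204 and miR-338 are among those studied in myelinating glia or after nerve injury.

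The deposited table lists 965 entries, of which 481 are mature miRNAs and 484 are hairpins. Counts of the 2 kinds were read apart, since the table gives a hairpin entry and a mature entry for the same locus. The 6 libraries held 81807 to 474965 counts, and 3 counts corresponded to between 6.32 and 36.7 CPM, counts per 1000000 counts of the library. All of them carry the name of 1 sequencing project in the labels. The shallowest was undifferentiated library 1 and the deepest differentiated library 2. Hairpin entries took 24.4%, 20.9% and 19.1% of counts in the undifferentiated libraries and 19.8%, 17.3% and 18.2% in the differentiated libraries, which overlapped (two-sided exact permutation p = 0.2, where 3 against 3 libraries allow no p under 0.1). Without the 10 most abundant entries, the hairpin mir-21 among them, the shares were 38.5%, 38.2% and 36.9% against 34.8%, 34.9% and 34.7%, which did not overlap. In the cell mRNA libraries of the same stages, 3 Schwann cell genes (Sox10, S100b and Erbb3) measured 366 to 1479.9 CPM. Genes of fibroblasts (Thy1, Dcn, Lum), leukocytes (Ptprc), neurons (Rbfox3) and endothelium (Pecam1) measured at most 1.92 CPM there.

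RefSeq (GRCr8) gave a sequence for 434 of the 481 mature entries. The let-7 family is shown first because its members took the largest share of the counts and 3 of them had an unadjusted p under 0.05. The seed stands in capitals, and the members run from the largest to the smallest fitted change.
let-7a-5p: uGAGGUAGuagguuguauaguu
let-7f-5p: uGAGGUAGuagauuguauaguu
let-7d-5p: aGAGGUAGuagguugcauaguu
let-7e-5p: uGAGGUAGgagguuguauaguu
miR-98-5p: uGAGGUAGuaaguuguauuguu
let-7c-5p: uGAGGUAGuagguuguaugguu
let-7g-5p: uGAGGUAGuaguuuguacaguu
let-7b-5p: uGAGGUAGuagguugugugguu
let-7i-5p: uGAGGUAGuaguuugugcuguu
All 9 share the seed GAGGUAG, and no other tested mature entry with a sequence has it. The next set holds the other mature miRNAs on which the results turn, which are miR-21-5p and those of smallest p.
miR-21-5p: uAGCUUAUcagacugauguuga
miR-30c-5p: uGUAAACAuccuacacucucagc
miR-30a-3p: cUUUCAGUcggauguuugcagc
miR-92b-5p: aGGGACGGgacgcggugcaguguu
miR-338-3p: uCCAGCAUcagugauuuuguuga
miR-92a-3p: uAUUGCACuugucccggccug
miR-149-5p: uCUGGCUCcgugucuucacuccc
miR-450b-3p: aUUGGGGAcgcuucgcauuca
None of these 8 shares a seed with another in the set.

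Some entries cannot be told apart by their counts. Of the entries with at least 50 counts in total, 31 fell into 15 sets with the same count in every library. miR-3596a is one of them, and its counts were those of let-7a-5p.
miR-3596a: aACUAUACaaccuacuaccuca
Its sequence is the reverse complement of let-7a-5p over all 22 bases, and miR-3588 stood to miR-125b-5p in the same relation. miR-3596d is the reverse complement of the first 20 bases of let-7f-5p, and its hairpin entry had the counts of let-7f-1. miR-3596d measured 807, 708 and 1441 CPM against 1775, 1743 and 1960 CPM (log2 change 0.92, SE 0.381, edgeR adjusted p = 0.541). Counts in this table thus did not separate strands or copies at such loci, and entries of this kind are uncertain as separate results.

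After a filter on low counts, 361 entries were tested, 177 mature and 184 hairpin. With edgeR's quasi-likelihood test, 0 of 361 (0%) passed an adjusted p of 0.05 (Benjamini-Hochberg over all tested entries), while 29 (8.03%) had an unadjusted p under 0.05. Of these 29, 22 were higher (6.09% of all tested) and 7 lower (1.94%) in EVs of differentiated cells. DESeq2's Wald test called 5 entries, 4 higher (miR-30c-5p, miR-30a-3p, miR-92b-5p and the hairpin mir-6320) and 1 lower, the hairpin mir-21. With the replicate number as a block, whose meaning the labels do not give, edgeR called 10 entries, 8 of them higher. In the edgeR fit without this block, the smallest adjusted p was 0.0604, of the hairpin mir-21. The smallest of a mature entry there was 0.284, of miR-92b-5p. Among mature entries 13 of 177 (7.34%) had an unadjusted p under 0.05, 11 higher (6.21%) and 2 lower (1.13%). With 1 entry of each identical set, where let-7a-5p and miR-3596a count once, 12 of 176 mature entries had an unadjusted p under 0.05. Among hairpin entries 16 of 184 (8.7%) did, 11 higher (5.98%) and 5 lower (2.72%). Over both kinds of entry, all 3 differentiated libraries lay above all 3 undifferentiated libraries for 32 entries (8.86%) and below them for 24 (6.65%). For mature entries these counts were 19 (10.7%) and 7 (3.95%) and for hairpin entries 13 (7.07%) and 17 (9.24%) of 184. The median log2 change was -0.01 for mature and 0.05 for hairpin entries. Log2 changes are those of the fit, scaled for composition with TMM factors, so they can differ somewhat from the ratio of the mean CPM. In such bulk samples fewer EVs or cells of a type and less of a miRNA in each cannot be told apart. The plot of log2 change by mean level places the entries named below among all those tested.

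**Figure D1:**
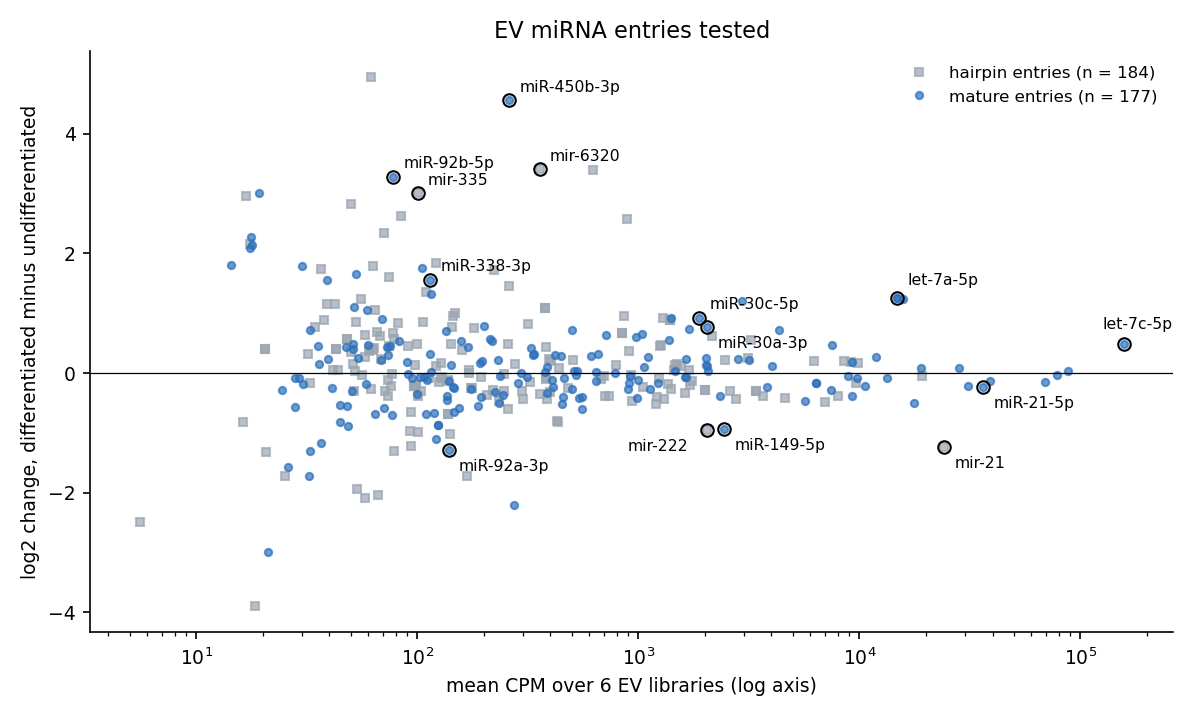
Log2 change of the 361 tested EV miRNA entries (differentiated minus undifferentiated, edgeR fit) against their mean CPM over the 6 libraries on a log axis, with mature entries as blue circles, hairpin entries as grey squares and some of the entries named in the text ringed. The hairpin mir-21 lies at -1.23 among the most abundant entries, while changes beyond 3 in either direction belong to entries of lower mean level.

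The cargo was carried by few miRNAs in both stages. The 10 mature miRNAs of highest mean level were let-7c-5p, let-7b-5p, miR-26a-5p, let-7i-5p, miR-10a-5p, miR-21-5p, miR-148b-3p, miR-24-3p, miR-99a-5p and miR-423-5p. Together they took 51.3%, 57.6% and 59.97% of counts in the undifferentiated and 53.4%, 59.5% and 56.1% in the differentiated libraries. let-7c-5p, the most abundant, made up 7.83%, 13.9% and 18% of counts in undifferentiated and 14.3%, 19.5% and 20.5% in differentiated EVs. Its groups overlapped (log2 change 0.49, SE 0.512, edgeR adjusted p = 0.895). The change was 0.01 without undifferentiated library 1, 0.24 without differentiated library 3 and 0.81 without undifferentiated library 3. let-7b-5p measured 78477, 91902 and 96400 CPM against 84142, 98618 and 77280 CPM, and miR-26a-5p 77072, 79318 and 88923 CPM against 71039, 82002 and 73541 CPM. These levels also overlapped, with log2 changes of 0.03 and -0.04. The change farthest from 0 among the 10 was that of miR-423-5p, at -0.50 (SE 0.296, edgeR adjusted p = 0.629). For all 10 the libraries of the stages overlapped.

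miR-148b-3p counts among the 10, at 29122 to 41922 CPM in undifferentiated and 22060 to 34817 CPM in differentiated EVs. Its near-identical relative miR-148a-3p measured 13.5 to 110 CPM, while the hairpin mir-148a measured 6759 to 12690 CPM. How reads that match both were shared is not given in the sources used here, so the split between miR-148a and miR-148b is uncertain.

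Of the let-7 family, 9 of 9 members were tested, 0 passed the adjusted threshold, 3 (let-7a-5p, let-7f-5p and let-7d-5p) had an unadjusted p under 0.05 and 8 had a positive log2 change, where 49.7% of all tested mature entries did. The median log2 change of the family was 0.65, beside -0.01 over all tested mature entries. let-7 miRNAs repress growth and stem-cell genes and are needed for Schwann cell myelination in mice. let-7a-5p measured 6515, 9114 and 11830 CPM in EVs of undifferentiated cells and 13004, 18877 and 29775 CPM in EVs of differentiated cells. The lowest differentiated library stood above the highest undifferentiated library, and differentiated library 3 was the highest. The fitted log2 change was 1.26 (SE 0.466), with an unadjusted p of 0.0197 and an edgeR adjusted p of 0.475. let-7f-5p measured 6650, 9893 and 12588 CPM against 14475, 19589 and 31109 CPM, and its groups did not overlap either (log2 change 1.24, SE 0.501, edgeR adjusted p = 0.528). let-7d-5p measured 966, 1972 and 2552 CPM against 2365, 4055 and 5712 CPM, with differentiated library 1 inside the undifferentiated range (log2 change 1.20, SE 0.527, edgeR adjusted p = 0.565). let-7e-5p measured 2567, 3436 and 4052 CPM against 4239, 5379 and 6171 CPM, which did not overlap (log2 change 0.72, SE 0.404, edgeR adjusted p = 0.629).

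The other members of the family had smaller fitted changes. miR-98-5p, let-7c-5p and let-7g-5p had log2 changes of 0.65, 0.49 and 0.48, and let-7b-5p and let-7i-5p had 0.03 and -0.15, all with overlapping libraries. The family's summed share of counts was 24.7%, 34.3% and 39.4% in undifferentiated and 32.3%, 41.5% and 43.9% in differentiated libraries, a difference of means of 6.45 percentage points (two-sided exact permutation p = 0.3). Within each stage library 1 had the lowest share and the highest TMM factor, 1.31 and 1.22 against 0.842 to 0.944 in the other 4 libraries. The part of composition in the let-7 values was not tested. The log2 changes of let-7a-5p, let-7f-5p and let-7d-5p were 0.71, 0.71 and 0.70 without differentiated library 3, and 0.82, 0.80 and 0.69 without undifferentiated library 1. For the dedifferentiated stage let-7a-5p measured 13020, 17778 and 15399 CPM, and each of these libraries lay above the undifferentiated ones.

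**Figure D2:**
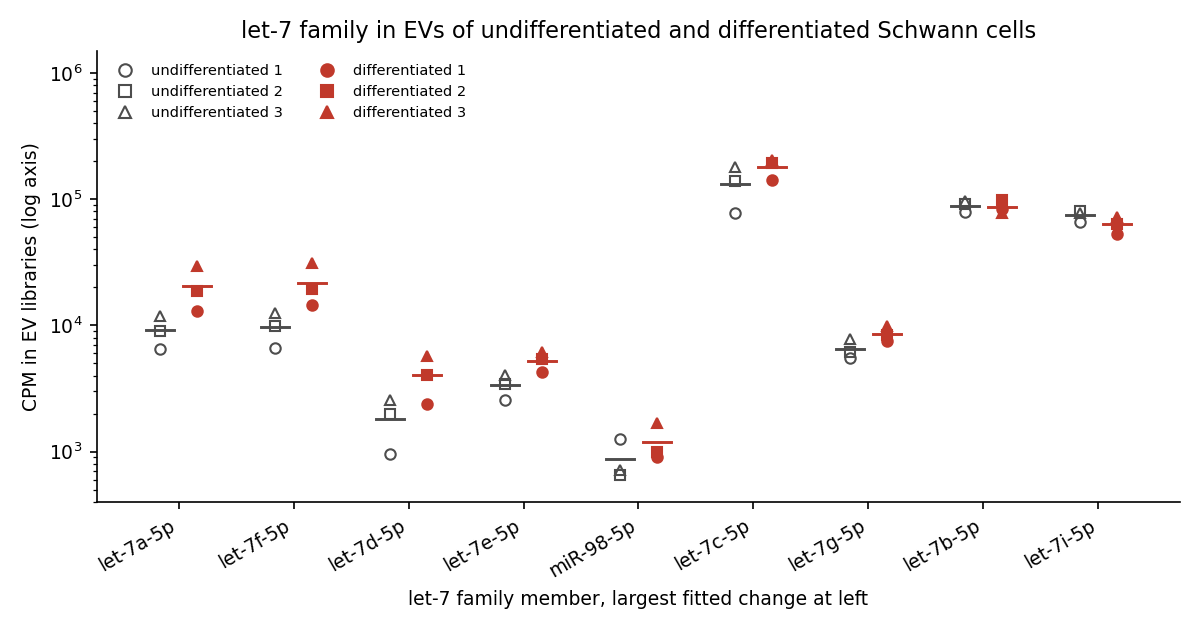
CPM of the 9 let-7 family members in each EV library on a log axis, with undifferentiated libraries as open grey and differentiated libraries as filled red symbols, a symbol shape for each replicate number and a bar at each mean. For let-7a-5p the undifferentiated libraries reach 11830 CPM and the differentiated libraries begin at 13004 CPM, while let-7b-5p and let-7i-5p overlap.

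The 4 members with the largest changes, let-7a, let-7d, let-7e and let-7f, are also the 4 whose sequence ends in AUAGUU, read in the mature strand alone. These 4 had log2 changes of 0.72 to 1.26, and the 5 with other ends had changes of -0.15 to 0.65. This ending was picked after the values were seen, and among the 164 tested mature entries with a sequence it occurs in these 4 alone (2.44%). let-7a-1, let-7f-1 and let-7d also lie together at chr17:16320133-16322357 on the + strand (GRCr8), within 2.225 kb. let-7a and let-7f have further copies elsewhere whose mature strands are the same, and the counts cannot assign the mature reads to a copy. The mature sequences of several members also differ by few bases. How reads that match more than 1 member were shared is not given in the sources used here. The let-7 members are therefore uncertain as separate results. The hairpin entries of this locus measured 538, 962 and 1201 CPM against 1502, 1373 and 2169 CPM for let-7a-1, and 73.3, 320 and 328 CPM against 348, 514 and 694 CPM for let-7d. Neither of these overlapped between stages, and the fit gave 0.92 (edgeR adjusted p = 0.571) and 1.09 (edgeR adjusted p = 0.629) on the log2 scale. The let-7d hairpin entry had the counts of mir-3596b in every library, so it is uncertain as a separate result. Its 73.3 CPM in undifferentiated library 1 rested on few counts. For let-7f-1 the libraries overlapped, at 782, 625 and 667 CPM against 732, 916 and 1341 CPM (log2 change 0.67, edgeR adjusted p = 0.629).

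mir-21 gave the smallest p of all entries, and it did so as a hairpin. miR-21 is induced in Schwann cells after nerve injury. The precursor is shown because the table counts it apart from its mature strand, and the 2 mature arms stand in capitals.
mir-21 hairpin: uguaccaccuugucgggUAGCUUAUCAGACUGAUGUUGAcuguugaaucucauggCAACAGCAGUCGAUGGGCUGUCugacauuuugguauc
It lies at chr10:71902600-71902691 on the - strand (GRCr8). The hairpin entry measured 40547, 32300 and 31299 CPM in undifferentiated and 14257, 12531 and 14348 CPM in differentiated EVs. The highest differentiated library was well below the lowest undifferentiated library, and the libraries of each stage lay close together. The log2 change was -1.23 (SE 0.227), with an unadjusted p of 0.000167 and an edgeR adjusted p of 0.0604. Over 21 alternative fits the log2 change ranged from -1.42 to -1.21, and 15 of them called it. Dedifferentiated EVs held 14036, 10159 and 10261 CPM.

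The mature strand did not show a change of this size. miR-21-5p measured 50546, 34069 and 36694 CPM in undifferentiated and 39054, 28876 and 28663 CPM in differentiated EVs, and differentiated library 1 lay within the undifferentiated range (log2 change -0.24, SE 0.224, edgeR adjusted p = 0.853). The ratio of hairpin to mature counts was 0.802, 0.948 and 0.853 in the undifferentiated libraries and 0.365, 0.434 and 0.501 in the differentiated libraries. A test of this ratio, chosen after the values of mir-21 were seen, was fitted to all 62 pairs of a hairpin and its mature miRNA with at least 10 counts of each in every one of the 6 libraries. mir-21 was the 1 pair of 62 (1.61%) that passed, with a log2 ratio change of -1.003 (SE 0.162, edgeR adjusted p = 0.00359), and the next smallest adjusted p was 0.281. Leaving out any of the 6 libraries gave between -1.12 and -0.89. Over the 62 pairs the median log2 ratio change was -0.16, with all differentiated ratios below the undifferentiated ones for 9 pairs (14.5%) and above them for 2 (3.23%). Whether a read of the mature strand was also counted in the hairpin entry is not given in the sources used here, so the ratio describes the deposited counts and not the abundance of the precursor.

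**Figure D3:**
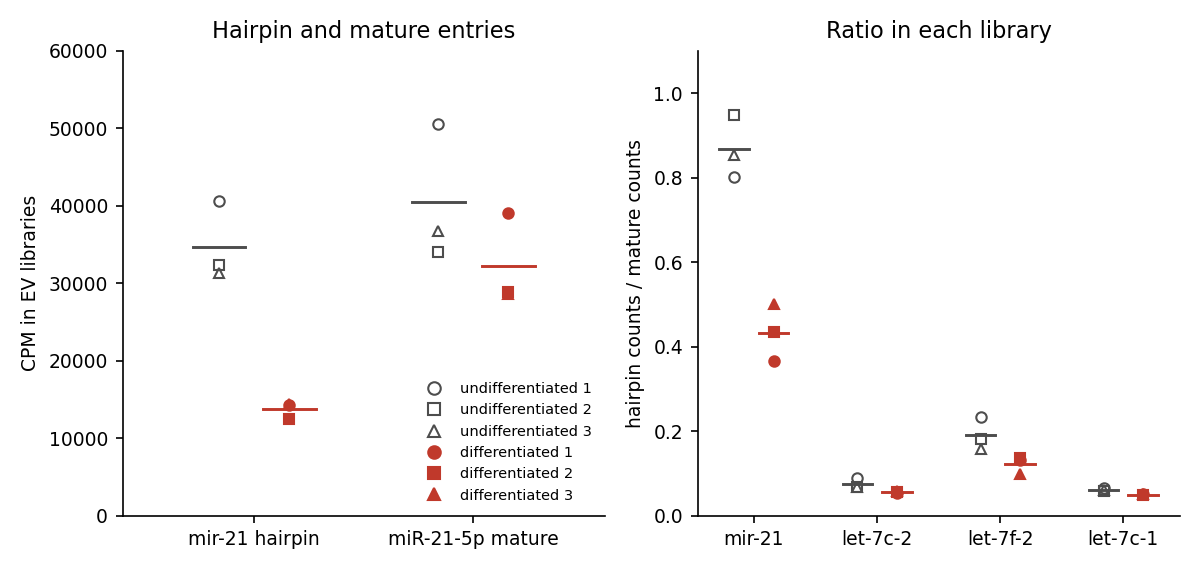
Left, CPM of the mir-21 hairpin entry and of mature miR-21-5p in each EV library; right, the ratio of hairpin to mature counts for the 4 pairs of smallest p in the ratio test, with open grey symbols for undifferentiated and filled red symbols for differentiated libraries and a bar at each mean. The mir-21 ratios lie between 0.802 and 0.948 in undifferentiated and between 0.365 and 0.501 in differentiated EVs.

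Among other mature miRNAs with higher values in differentiated EVs, miR-30c-5p had the steadiest libraries. It belongs to a family with the seed GUAAACA. miR-30c-5p measured 1381, 1418 and 1240 CPM in undifferentiated and 2520, 2268 and 2486 CPM in differentiated EVs. The stages were well apart (log2 change 0.93, SE 0.258, edgeR adjusted p = 0.424), and dedifferentiated EVs held 3346, 2736 and 3614 CPM. Its hairpin entries mir-30c-1 and mir-30c-2 did not overlap between stages either, with fitted changes of 1.72 and 1.45 (log2; each had an edgeR adjusted p of 0.475). mir-30c-1 rested on 4, 38 and 55 counts against 75, 145 and 40. miR-30a-3p, from the other arm of mir-30a, measured 1711, 1467 and 1495 CPM against 3004, 2518 and 2115 CPM (log2 change 0.78, SE 0.244, edgeR adjusted p = 0.475).

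Of the 5 listed members of the miR-30 family, 4 were tested and 0 were called, with a median log2 change of -0.20. A positive change was found for 2, where 49.7% of all tested mature entries had one. miR-30a-5p, which has the same seed, measured 868, 602 and 539 CPM against 664, 781 and 418 CPM (log2 change 0.02). miR-30d-5p measured 1638, 899 and 939 CPM against 1148, 724 and 566 CPM (log2 change -0.42, edgeR adjusted p = 0.629). The hairpin mir-30d was below in all differentiated libraries, at 8838, 9006 and 7227 CPM against 6617, 5693 and 4722 CPM (log2 change -0.49, SE 0.216, edgeR adjusted p = 0.565).

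miR-92b-5p had the smallest p of the mature entries and was rare. It had 0, 4 and 9 counts in the undifferentiated and 32, 67 and 14 counts in the differentiated libraries, or 0, 11.4 and 22.1 CPM against 199, 141 and 94.3 CPM. The groups were well apart, although undifferentiated library 1 was too shallow to show a level under 36.7 CPM. The log2 change was 3.28 (SE 0.803, edgeR adjusted p = 0.284). Its partner strand miR-92b-3p measured 1528, 802 and 811 CPM against 1515, 878 and 1112 CPM, with a log2 change of 0.28. miR-338-3p, which promotes the maturation of oligodendrocytes, the myelinating glia of the brain, measured 48.9, 57.1 and 68.6 CPM against 149, 141 and 222 CPM. Its stages did not overlap (log2 change 1.56, SE 0.587, edgeR adjusted p = 0.477), and dedifferentiated EVs held more still, at 464, 895 and 297 CPM. miR-338-3p had 4, 20 and 28 counts in undifferentiated and 24, 67 and 33 in differentiated libraries, so its level in undifferentiated library 1 was near the floor. miR-338-5p, from the other arm of the same hairpin, was the more abundant strand, at 1853 to 2274 CPM in undifferentiated and 1986 to 2076 CPM in differentiated EVs (log2 change 0.13). miR-155-5p, known from inflammation, measured 36.7, 22.8 and 71.1 CPM against 323, 90.5 and 87.6 CPM. Its log2 change was 1.76 (SE 0.729, edgeR adjusted p = 0.541). Undifferentiated library 1 stood at the floor of 36.7 CPM for this entry, and differentiated library 1 was well above the others of its stage. miR-155-5p was outside the rule for naming and was added after its values were seen.

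**Figure D4:**
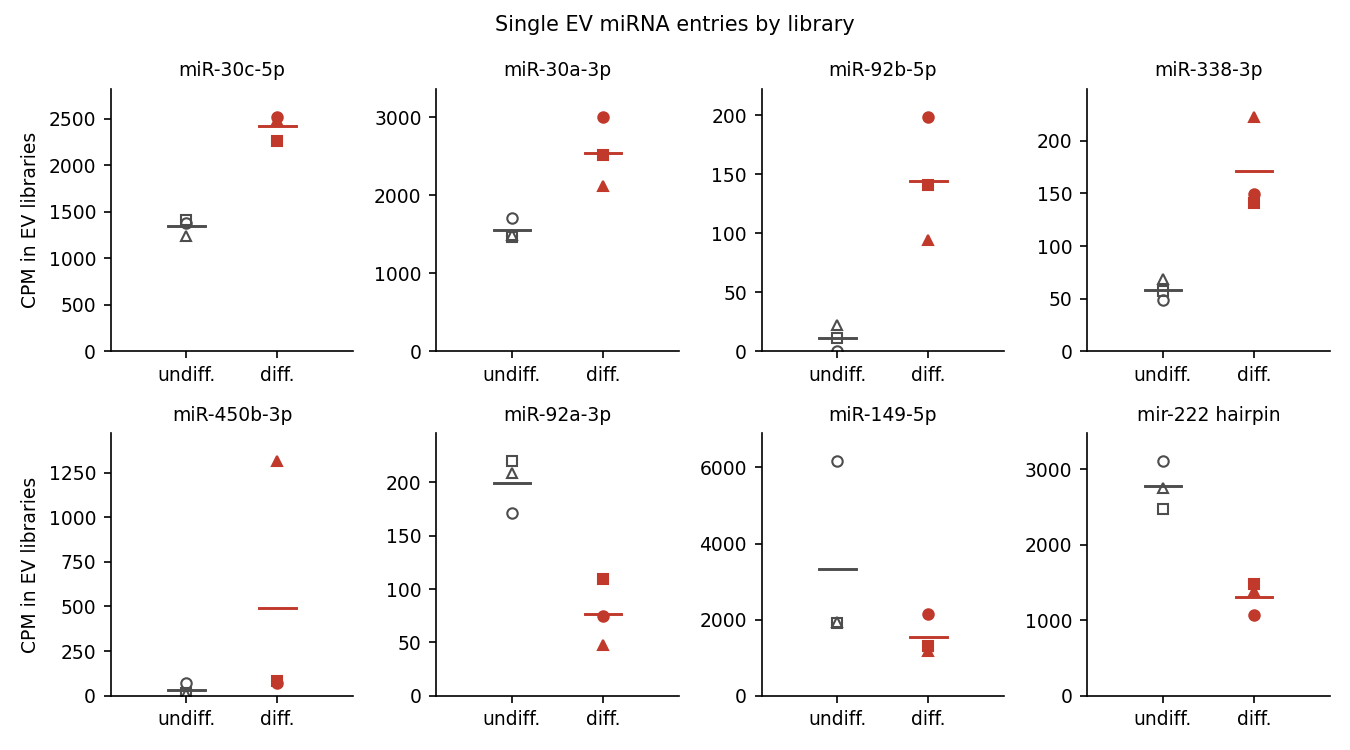
CPM of 7 mature miRNAs and the mir-222 hairpin in each EV library on linear axes that start at 0, with open grey symbols for undifferentiated, filled red symbols for differentiated libraries, circles, squares and triangles for replicates 1, 2 and 3 and a bar at each mean. miR-30c-5p separates the stages with little spread, while the differentiated mean of miR-450b-3p rests on library 3 and the undifferentiated mean of miR-149-5p on library 1.

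Several of the largest fitted increases came from 1 library. miR-450b-3p measured 73.3, 14.3 and 9.81 CPM in undifferentiated and 68.3, 84.2 and 1314 CPM in differentiated EVs. Differentiated library 3 held 15.6 times the next library, and the log2 change of 4.57 (edgeR adjusted p = 0.424) was 1.53 without it. The hairpin mir-6320 measured 73.3, 74.2 and 56.4 CPM against 323, 63.2 and 1556 CPM, and its log2 change of 3.41 was 1.30 without the same library. mir-3075 had 0, 3 and 0 counts against 14, 0 and 41, with a fitted log2 change of 4.95 that depends on how zeros are treated. Of the 361 tested entries, 7 in differentiated library 3 were at 5 times or more the next library of their stage, beside 17 in differentiated library 1, 3 in differentiated library 2 and 13 in undifferentiated library 1. Of the other hairpins, mir-335 and mir-6323 lay higher in all differentiated libraries, on few counts. mir-335 measured 73.3, 5.71 and 14.7 CPM against 99.3, 227 and 182 CPM (log2 change 3.01, edgeR adjusted p = 0.475), and mir-6323 measured 24.4, 5.71 and 12.3 CPM against 86.9, 29.5 and 141 CPM (log2 change 2.82, edgeR adjusted p = 0.475). mir-6323 had 2, 2 and 5 counts against 14, 14 and 21, and in undifferentiated library 1 its level was under the floor of 36.7 CPM, so that library could not be compared.

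Lower values in differentiated EVs were fewer among mature entries. miR-92a-3p, a member of the miR-17 to miR-92 cluster that promotes proliferation, measured 171, 220 and 208 CPM in undifferentiated and 74.5, 109 and 47.2 CPM in differentiated EVs. The stages did not overlap (log2 change -1.29, SE 0.564, edgeR adjusted p = 0.565), though differentiated library 3 rested on 7 counts. miR-149-5p measured 6161, 1915 and 1937 CPM against 2154, 1314 and 1186 CPM, with differentiated library 1 inside the undifferentiated range. Its log2 change of -0.93 (SE 0.343, edgeR adjusted p = 0.475) was -0.55 without undifferentiated library 1. The hairpin mir-222 measured 3105, 2468 and 2748 CPM against 1068, 1476 and 1381 CPM and did not overlap (log2 change -0.96, SE 0.349, edgeR adjusted p = 0.475). Mature miR-222-3p, which represses the cell cycle inhibitor p27, measured 281, 131 and 145 CPM against 149, 94.7 and 80.8 CPM (log2 change -0.66, edgeR adjusted p = 0.843). Its cluster partner miR-221-3p measured 1638, 1216 and 949 CPM against 1390, 792 and 808 CPM (log2 change -0.27), so both mature strands overlapped between stages. The hairpin mir-346 measured 575, 154 and 80.9 CPM against 55.9, 56.8 and 80.8 CPM, where undifferentiated library 3 and differentiated library 3 were level. Its log2 change of -1.72 was -1.03 without undifferentiated library 1. mir-871 had 7, 8 and 0 counts against 0, 1 and 0.

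Groups of miRNAs with a known role in Schwann cells or in cyclic AMP signalling were read as lists. Of 37 miRNAs of Schwann cell differentiation and nerve injury in the table, 24 were tested and 0 were called, 7 with a positive log2 change and a median of -0.09. The 2 with an unadjusted p under 0.05 were miR-30c-5p and miR-338-3p. Over all tested mature entries, 49.7% had a positive log2 change and 7.34% an unadjusted p under 0.05. The most abundant of this list, miR-21-5p and miR-24-3p, had log2 changes of -0.24 and 0.08. miR-204-5p measured 1711, 845 and 1020 CPM against 1546, 1421 and 1745 CPM, with undifferentiated library 1 apart from the other 2 of its stage (log2 change 0.56, SE 0.266, edgeR adjusted p = 0.565). miR-138-5p, miR-29b-3p and miR-29c-3p, all studied in myelinating Schwann cells, had at most 6 counts in any of the 6 libraries and were not tested. The miRNAs best known as targets of the cyclic AMP responsive factor CREB also had few counts. miR-132-3p and miR-132-5p had at most 4 counts in any library and miR-212-5p had 0, so no difference could be detected at this depth.

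Clusters tied to proliferation gave no call. Of 16 entries of the miR-17 to miR-92 clusters listed in the table, 9 were tested, with a median log2 change of -0.13. A positive change was found for 3, where 49.7% of all tested mature entries had one. miR-25-3p, the most abundant, measured 5537, 3849 and 3422 CPM against 3886, 2836 and 3348 CPM (log2 change -0.23), and miR-17-5p measured 97.8, 131 and 159 CPM against 174, 194 and 189 CPM (log2 change 0.54, edgeR adjusted p = 0.881). In the cluster of miR-322, miR-503 and miR-351, 4 of 10 entries were tested and the median was -0.38. miR-351-5p measured 733, 671 and 473 CPM against 633, 415 and 303 CPM, with overlapping libraries. The summed share of this cluster was the only one of the lists whose libraries all lay lower, at a mean of 0.127% ± 0.0095 against 0.0988% ± 0.012 (SD, n = 3; exact permutation p = 0.1, the smallest this design allows). This p was not adjusted for the number of lists read, and 0 of the 4 tested entries lay lower in all differentiated libraries. The one tested member of the miR-15/16 seed family, miR-16-5p, had a log2 change of 0.42 and that of the miR-29 family, miR-29a-3p, of -0.11. The median over the tested strands miR-221-3p and miR-222-3p was -0.46.

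Markers of other cell types took small shares of the counts with 2 exceptions, though single members lay above the floor of 3 counts. Epithelial miR-203a-3p had 37, 65 and 114 counts in undifferentiated and 77, 72 and 25 in differentiated libraries. Fibroblast miR-199a-3p had 38, 128 and 145 against 40, 197 and 70. Of the fibroblast list only 3 of 7 members had a deposited entry. These summed to 0.0479% to 0.0929% of counts in undifferentiated and 0.036% to 0.0537% in differentiated libraries. The muscle list summed to 0.0211% to 0.044% and 0.0249% to 0.0434%. Endothelial miR-126a-3p, the 1 of 2 listed endothelial members with a deposited entry, reached at most 48.5 CPM, and the epithelial list at most 0.0623% of counts. In the blood and serum list, the red cell miRNA miR-451-5p had at most 12 counts in any library, while the liver miRNA miR-122-5p measured 1430, 796 and 686 CPM against 1502, 617 and 404 CPM (log2 change -0.16). The neuron list summed to 0.778% to 1.19% and 0.645% to 0.902%, almost all of it miR-128-3p and miR-9a-5p, while neuron-defining miR-124-3p had 0 counts in all 6 libraries. No member of these 6 lists had an unadjusted p under 0.05, and the part of serum or other cells in any EV level was not tested.

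Besides let-7, the families that share a seed and have at least 3 tested members had median log2 changes between -0.23 and 0.47. The highest of these, for the seed GUAAACA, leaves out miR-30d-5p (log2 change -0.42), which has no sequence in the table used, and the next highest was 0.15, for the seed AAAGUGC. Of the 2 tested miRNAs with the seed GCAGCAU, miR-103-3p measured 97.8, 168 and 176 CPM against 236, 229 and 296 CPM without overlap (log2 change 0.79, edgeR adjusted p = 0.67) and miR-107-3p had a log2 change of 0.47. The 5p and 3p arms had medians of 0.01 (86 entries) and -0.08 (60 entries). Across the 164 tested mature entries with a sequence, base content and log2 change had a Spearman correlation of -0.04, given as a description over entries of the same 6 libraries.

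Cell transcripts at the loci of these miRNAs were measured in separate cell mRNA libraries of the same stages, where 6179 of 10372 tested genes (59.6%) were called by edgeR, 31.7% higher and 27.9% lower in differentiated cells. Vmp1 is the gene whose 3′ end lies 531 bases from the mir-21 hairpin on the same strand (chr10:71903223-72002337, GRCr8), and it was chosen after its values were seen. Vmp1 mRNA measured 223, 274 and 232 CPM in undifferentiated and 59.7, 62.9 and 68.8 CPM in differentiated cells. It fell by 1.99 on the log2 scale (SE 0.109, edgeR adjusted p = 1.13e-07), and the log2 change of the mir-21 hairpin in EVs was -1.23. Aatk, a kinase gene with mir-338 in an intron on the same strand, measured 1103, 943 and 970 CPM against 3721, 3711 and 3259 CPM. Its rise of 1.76 (SE 0.113, edgeR adjusted p = 3.51e-07) stood beside log2 changes of 1.56 for miR-338-3p and 0.13 for miR-338-5p in EVs. Trpm3, the host of mir-204, measured 18.3, 34.5 and 46.4 CPM against 65.1, 61.8 and 75.9 CPM and rose by 0.97 (SE 0.267, edgeR adjusted p = 0.009).

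Rpl29, which overlaps let-7g, measured 396, 413 and 358 CPM against 525, 568 and 520 CPM. It rose by 0.41 (edgeR adjusted p = 0.0046), beside a log2 change of 0.48 for let-7g-5p in EVs, while Wdr82 at the same locus had -0.04. Lnc215, which spans let-7a-2, measured 37.2, 118 and 109 CPM in undifferentiated and 16.4, 17.5 and 31.3 CPM in differentiated cells. It fell by 2.06 on the log2 scale (SE 0.405, edgeR adjusted p = 0.00125), while let-7a-5p in EVs had a log2 change of 1.26, a value that sums all copies of let-7a. Wwp2, host of mir-140, measured 52.5, 61.6 and 59.9 CPM against 35.5, 36.5 and 34.9 CPM and fell by 0.76 (edgeR adjusted p = 8.16e-05), and miR-140-5p had a log2 change of -0.36. Zmiz1, host of mir-3075, fell by 0.50 (edgeR adjusted p = 0.0158). Of the hosts of abundant EV miRNAs, Ctdspl (mir-26a), Copz1 (mir-148b) and Nsrp1 (mir-423) did not pass the threshold, with log2 changes of 0.08, -0.03 and -0.28. Nsrp1 had an edgeR adjusted p of 0.083, and of 0.0348 with the replicate number as a block. In cell mRNA the labels give replicate 3 of each stage another sequencing project, and for Vmp1, Aatk, Trpm3, Lnc215 and Wwp2 the stages differed in the same direction within each project. Cell and EV libraries were set side by side by stage alone. They share a library code in the labels, which do not say what the code marks.

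**Figure D5:**
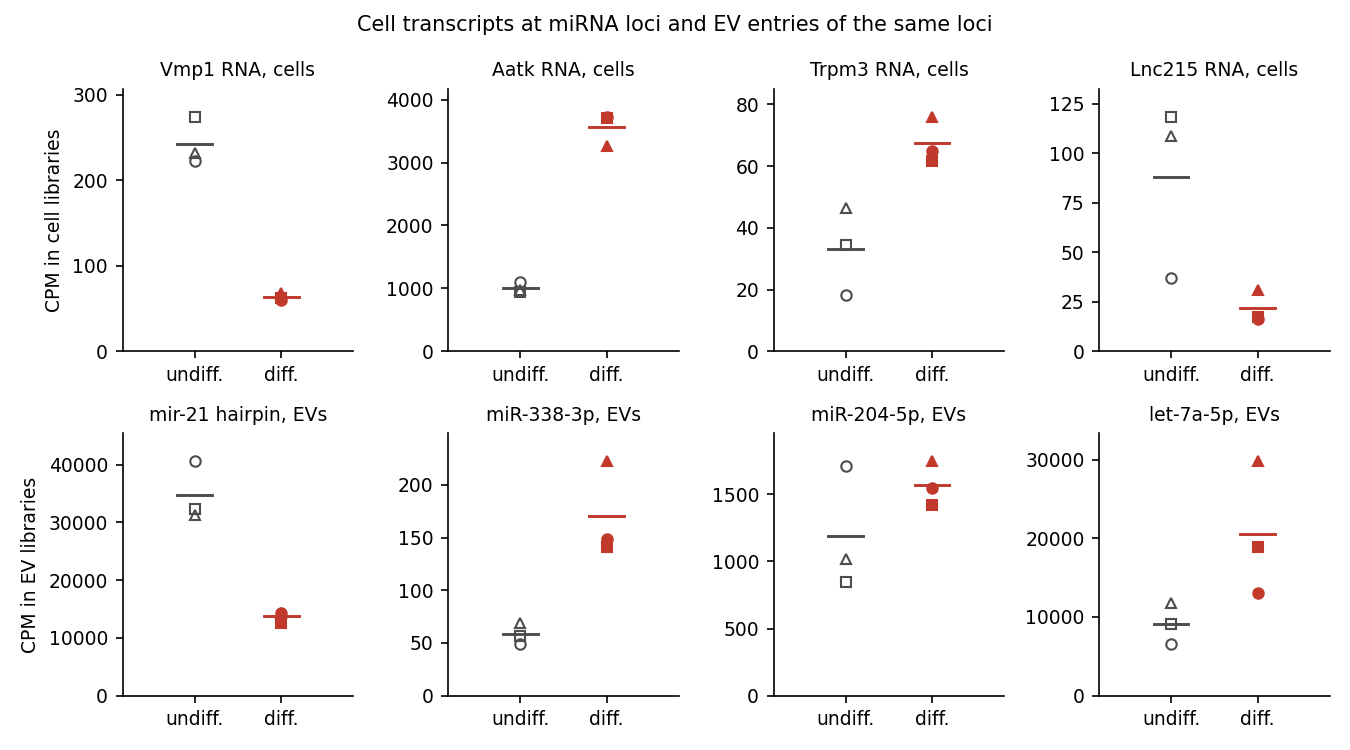
Top, CPM of 4 cell transcripts at miRNA loci in the cell mRNA libraries. Bottom, CPM of the EV miRNA entry set beside each, where let-7a-5p sums all copies of let-7a. Open grey symbols mark undifferentiated and filled red symbols differentiated libraries. Circles, squares and triangles stand for replicates 1, 2 and 3, with a bar at each mean. Vmp1 and the mir-21 hairpin are both lower in every differentiated library, and Aatk and miR-338-3p both higher, while Lnc215 and let-7a-5p differ in direction.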

How the data were processed

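The authors deposited 1 table of raw counts per miRNA entry for the EV small RNA libraries (miRNeasy Micro RNA, about 5 ng input, NEBNext small RNA kit, per the labels' protocols) and 1 table of estimated counts per gene for cell mRNA, merged by salmon per the labels. The aligner, counter, strand setting and treatment of reads that match several entries are not given for the miRNA table in the sources used here. Here, entries were split by name into mature and hairpin. All 9 EV miRNA libraries were fitted together with edgeR 4.0.16 in R 4.3.3 (TMM, filterByExpr with a minimum count of 10, quasi-likelihood test, Benjamini-Hochberg adjustment, threshold 0.05). Cell mRNA counts were rounded and fitted the same way. CPM used the total over all entries. The 6 libraries held 81807 to 474965 counts, and a floor of 3 counts covers counting error only. Single values were tested by exact permutation with scipy 1.17.1. DESeq2 1.42.0, other scalings, filters, entry sets, a replicate block and leaving out each library were alternatives.

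Named entries were the 10 mature entries of highest mean CPM, up to 8 mature and 6 hairpin entries per direction of smallest unadjusted p under 0.05, entries called with a replicate block, and up to 4 tested members of each list. The members, the lists and this rule were chosen with earlier results of these data known. let-7 hairpins, mir-148a and its mature strand, miR-92b-3p, miR-155-5p, miR-103-3p, miR-107-3p, Vmp1 and the ratio test were added after the values were seen. Scripts were tested on simulated data. The EV lncRNA libraries were not used here. Sequences and positions are from RefSeq (GRCr8). One cell marker gene is not reported here.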

Additional observations from a re-analysis of the deposited data

How the results depend on the processing

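The number of called entries depended on the fit. Against 0 in the fit reported, edgeR called 1 entry with DESeq2 size factors, 1 with library size alone, 1 with at least 10 counts in each of the 6 libraries and 1 with hairpin entries alone, in each case the hairpin mir-21. The median over tested entries shifted by -0.10 on the log2 scale with library size alone. With hairpin entries alone their median log2 change was -0.09, beside 0.05 for hairpin entries in the fit reported. With no filter on low counts 8 entries were called, 3 mature and 5 hairpin, and with DESeq2's Wald test 5, of which 3 were mature and 2 hairpin. Leaving out 1 library gave 0 to 1 calls, which was mir-21 without undifferentiated library 1 or without differentiated library 3. With the 6 libraries alone and with 1 entry of each identical set, 0 were called. With mature entries alone 0 were also called, in a set that leaves out the hairpin mir-21. Without the 10 most abundant entries 0 were called too, but mir-21 is among the 10 removed. The ratio of the mir-21 hairpin to its mature strand was called in all 8 other fits run. Mature entries whose libraries did not overlap, 19 above and 7 below in the fit reported, came to 28 when mature counts were scaled to their own total.

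The labels do not say what a replicate number of the 2 stages marks, and the libraries were treated as sharing only a number. Same-numbered libraries correlated at 0.24, -0.02 and 0.08 in their deviations from the stage means, while undifferentiated library 3 correlated at 0.37 with differentiated library 2, so not every library correlated best with its own number. Library 1 nevertheless had the highest TMM factor of its stage in undifferentiated, differentiated and dedifferentiated EVs (1.31, 1.22 and 1.32). It also had the lowest let-7 share of each stage (24.7%, 32.3% and 25.8%). With the replicate block, 10 entries were called, 8 mature (let-7a-5p, let-7d-5p, let-7f-5p, miR-3596a, miR-3596d, miR-30c-5p, miR-30a-3p and miR-92b-5p, all higher) and 2 hairpin (mir-21 and mir-222, both lower). let-7a-5p, let-7d-5p and let-7f-5p had an edgeR adjusted p of 0.00166 each with the block. miR-3596a has the counts of let-7a-5p and is not a separate call, and miR-3596d is uncertain as one. The block with mature entries alone called 12. The block with each library left out, chosen after seeing the data, called 1 to 13 entries, 0 to 10 of them mature and 1 to 3 hairpin. The block called 1 of the hairpin to mature ratios, mir-21, as without it.

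Among host genes, leaving out 1 library moved the log2 change of Ctdspl between -0.065 (without undifferentiated library 1) and 0.19, with -0.016 without differentiated library 2. Copz1 moved between -0.086 and 0.018 and Wdr82 between -0.15 and 0.038, in both cases reversed without undifferentiated library 1. Over the single entries and genes checked this way, 695 values kept direction and side of the threshold, 71 passed it under the alternative, 1 lost it and 4 reversed. The cause was not tested. Most of the 10 most abundant mature entries were not in this count, and some, with changes near 0, also reversed. Without undifferentiated library 1, let-7b-5p went from 0.03 to -0.31 and miR-99a-5p from 0.08 to -0.07. Without undifferentiated library 3, miR-26a-5p went from -0.04 to 0.08 and miR-24-3p from 0.08 to -0.06. The 3 counts of the floor stood for up to 36.7 CPM, so entries under that level could not be compared in undifferentiated library 1.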
